A study of Mus musculus with 6 samples.

Results

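The 10 genes described here, *Mup22*, *Mup18*, *Mup10*, *Mup11*, *Mup14*, *Mup7*, *Mup1*, *Mup3*, *Mup13* and *Mup2*, encode major urinary proteins, and they were followed in bulk RNA-seq of whole inguinal white adipose tissue (iWAT). They are 10 of the 22 numbered *Mup* genes and of the 36144 gene symbols in the deposited gene table. They were taken by symbol from a list drawn up with the contrast between Cebpa_ASKO and Cebpa_fl/fl iWAT in view. Their levels in that contrast are therefore a description, and no test is given for them. All 6 mice were 10-week-old females on a C57BL6/J background, fed chow ad libitum and sampled in the fed state, and the 2 genotypes were bred as littermates. Both genotypes carried the floxed *Cebpa* allele. The 3 Cebpa_ASKO mice also carried the AdipoQ-Cre transgene, in which the *Adipoq* promoter drives Cre recombinase, so that *Cebpa* is removed from maturing and mature adipocytes while other cell types retain the gene. The 3 Cebpa_fl/fl mice lacked the transgene, so no group carried Cre without the floxed allele. Each library held the paired inguinal depots of 1 mouse, with the lymph nodes taken out, and all 6 share 1 batch label.

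Major urinary proteins are small secreted lipocalins, barrel-shaped carriers that hold volatile ligands in a central pocket. The liver is their best-known source, from which they pass through the blood into the urine and release pheromones slowly, and other family members are made in glands and fat. Their transcription in the liver depends on growth hormone, acting through its receptor, JAK2 and STAT5, on glucocorticoid and thyroid hormone, and on liver-enriched factors that include C/EBP proteins. *Cebpa*, the deleted gene, encodes C/EBPα, a basic leucine zipper factor of adipocyte and hepatocyte differentiation.

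The libraries held between 33141769 and 49477671 estimated counts. *Cebpa* itself was at 448, 465 and 498 CPM (counts scaled to library size with TMM factors) in the Cebpa_fl/fl libraries and at 37.7, 45.8 and 37.2 in the Cebpa_ASKO libraries, which is 8.55% of the control mean. Adipocyte markers were present in all 6 libraries, with a summed level of 45090 to 55974 CPM in Cebpa_fl/fl and 13553 to 15614 in Cebpa_ASKO iWAT, and 8 of the 12 were called lower. In bulk tissue, fewer cells of a type and less RNA per cell cannot be told apart. Among all genes, 840 of 16069 tested, or 5.23%, were called at an adjusted p below 0.05 by edgeR (quasi-likelihood F test, p-values adjusted by Benjamini-Hochberg), and 617, or 3.84%, were called lower in Cebpa_ASKO iWAT. Every Cebpa_ASKO library lay below every Cebpa_fl/fl library for 13.2% of the tested genes. One control library, Cebpa_fl/fl 1, stood apart in lymphocyte markers, with 370 CPM summed over 12 genes against 8.68 to 19.9 in the other 5 libraries.

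The *Mup* genes lie side by side on chromosome 4, at chr4:59956804-62150863 in GRCm38, a span of 2.194 Mb, and 21 of the 22 numbered genes are read from the minus strand. *Mup22*, the gene with the most reads, occupies chr4:60817589-60821463. The members are close copies of each other, and this governs how far reads can be told apart. The same stretch of exon 2 is shown for 7 of them, because it holds 1 of the few positions at which the 3 most abundant genes differ. It covers bases 182 to 231 of the coding sequence of *Mup22*, counted from 1 at its first base, with bases that differ from *Mup22* in capitals (GRCm38, 5′ to 3′).
*Mup22*, chr4:60820850-60820899, minus strand: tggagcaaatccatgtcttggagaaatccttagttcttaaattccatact
*Mup18*, chr4:61673457-61673506, minus strand: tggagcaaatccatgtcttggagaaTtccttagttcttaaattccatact
*Mup11*, chr4:60661732-60661781, minus strand: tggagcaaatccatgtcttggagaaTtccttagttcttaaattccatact
*Mup14*, chr4:61303324-61303373, minus strand: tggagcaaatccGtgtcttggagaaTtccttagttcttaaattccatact
*Mup10*, chr4:60581523-60581572, minus strand: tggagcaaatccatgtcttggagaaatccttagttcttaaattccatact
*Mup7*, chr4:60069735-60069784, minus strand: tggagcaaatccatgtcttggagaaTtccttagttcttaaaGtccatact
*Mup3*, chr4:62086802-62086851, minus strand: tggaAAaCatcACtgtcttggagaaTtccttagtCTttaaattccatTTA
Over the whole coding sequence *Mup18* differed from *Mup22* only by A207T, which names the *Mup22* base, its position and the base of the other gene. *Mup11* differed by A207T and C252G. *Mup14* differed by A194G, A207T and C252G over the 453 aligned bases, and its annotated coding model lacks a start codon. *Mup10* matched *Mup22* in the window shown. Its coding sequence is shorter, at 543 bases against 546, and 3 bases of *Mup22* were left unaligned. Over the 543 aligned bases the alignment gave A5T, T8A, C10A and C13A. Gaps at the ends carried no penalty, so these mismatches near the start depend on where the gap was placed. *Mup1* had 7 mismatches, *Mup2* 6, *Mup7* 22 and *Mup13* 23, and each of these counts includes A5T, T8A and C10A. *Mup7* and *Mup13* were read from coding models of 708 bases. Many of their mismatches lie between bases 525 and 546, at the end of the *Mup22* sequence. These counts thus depend on the transcript model and the alignment as well as on the genes. *Mup3* was the member least like *Mup22*, with 88 mismatches in 546 aligned bases, an identity of 83.9%.

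Reads were assigned to transcripts by the authors with kallisto, which matches short words of a read to transcripts and divides read pairs that fit several transcripts among them. Words of 31 bases, the default length of kallisto, were counted in the leading protein-coding transcript of each gene against all annotated transcripts. *Mup22* had 0 words of 831 that were found in no other gene, and its words occurred in 2 to 21 numbered *Mup* genes with a median of 15. *Mup2* also had none. *Mup18* had 62 of 900, or 6.89%, *Mup11* 64 of 900 and *Mup10* 91 of 897, or 10.1%. *Mup3* had 587 of 886, or 66.3%. The level of *Mup3* is thus measured largely by its own sequence, whereas the division of reads among the other members is an estimate, and the sum over the genes depends on it less.

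**Figure D1:**
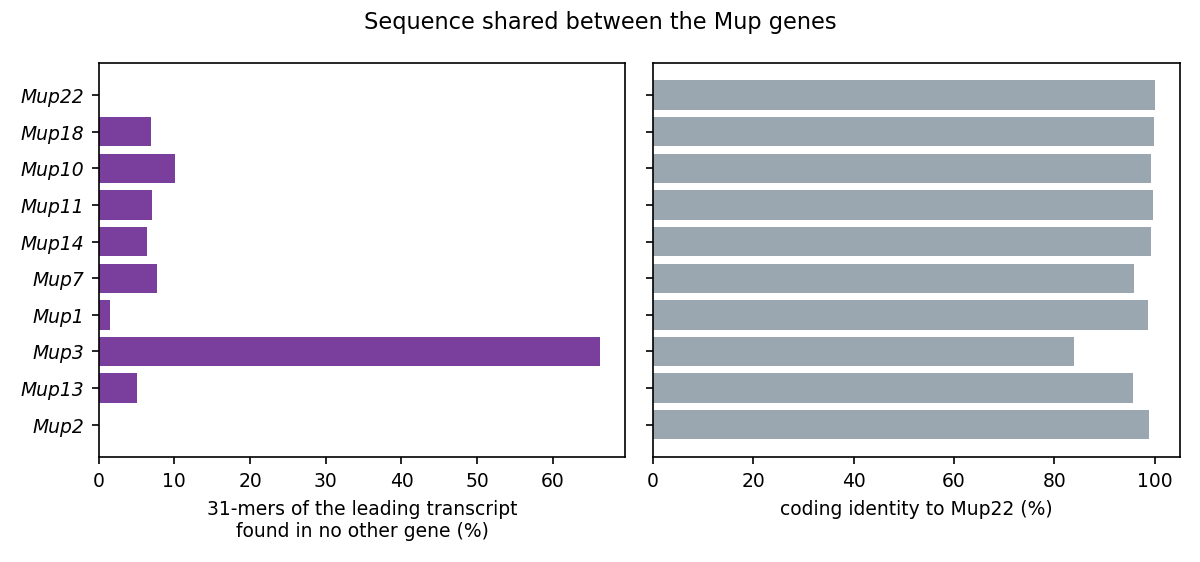
Left, the percentage of 31-base words of each gene's leading transcript that occur in no other gene; right, the identity of its coding sequence to that of Mup22 in percent, with genes ordered by mean level in Cebpa_fl/fl iWAT. Mup3 stands apart with 66.3% own words and 83.9% identity, while Mup22 and Mup2 have no word of their own.

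*Mup* transcripts were abundant in control iWAT. Levels are given first as the authors' gene TPM, a share corrected for transcript length that can be compared between genes. *Mup22* stood at 4457, 5497 and 6417 TPM in the 3 Cebpa_fl/fl libraries, and at rank 19, 18 and 17 among all gene symbols. For scale, *Adipoq*, the gene for the fat hormone adiponectin, was at 2308, 3494 and 2584 TPM in the same libraries. All 3 control libraries thus held more *Mup22* than *Adipoq* on this scale, subject to the read division described above. *Mup18* was at 423, 627 and 696 TPM. *Mup10* was at 358, 420 and 560 TPM, and *Mup11* at 173, 227 and 204. *Mup18* and *Mup10* had overlapping ranges in control iWAT and a ratio of means of 1.31, although *Mup18* was the higher in 3 of 3 libraries. *Mup22* was 9.37 times *Mup18*, and *Mup10* 2.21 times *Mup11*, with no overlap in either pair.

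The remaining members formed a lower tier. *Mup14* was at 63.8, 78.2 and 86.9 TPM and *Mup7* at 14.9, 16.3 and 13.0. *Mup1*, a urinary protein also studied as a circulating metabolic signal, was at 7.93, 8.74 and 9.85 TPM, and *Mup3* was at 6.25, 8.65 and 9.15. In the order *Mup22*, *Mup18*, *Mup10*, *Mup11*, *Mup14*, *Mup7*, *Mup1*, *Mup3*, *Mup13*, *Mup2*, neighbours had overlapping ranges for *Mup18* and *Mup10*, for *Mup1* and *Mup3*, and for *Mup13* and *Mup2*, and for no other pair. *Mup13* was at 1.76, 1.61 and 3.88 TPM. *Mup2* was the least regular, at 0.506, 4.75 and 1.61 TPM. The mean over the 3 libraries was 5457 ± 980 TPM for *Mup22* and 2.29 ± 2.20 TPM for *Mup2* (SD, n = 3), so the SD of *Mup2* was nearly as large as its mean.

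**Figure D2:**
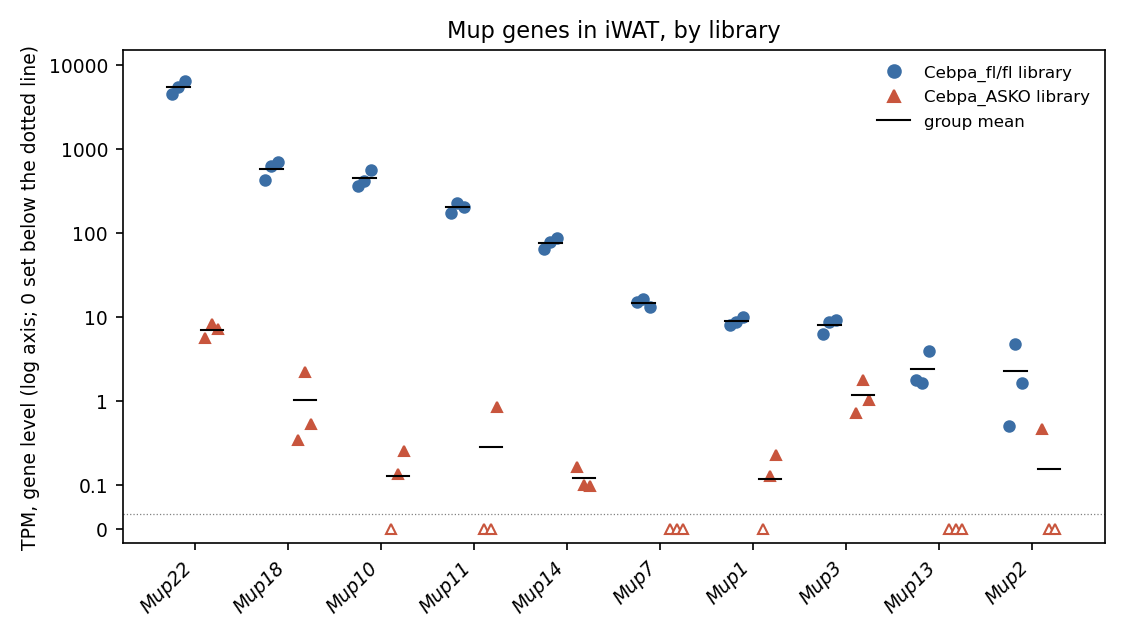
Gene TPM (log axis) of each of the 10 Mup genes in the 3 Cebpa_fl/fl libraries (circles) and the 3 Cebpa_ASKO libraries (triangles), with bars at the group means and values of 0 drawn as open symbols below the dotted line. Mup22 falls from 4457 to 6417 TPM in the controls to 5.53 to 8.11 TPM, and Mup3 keeps the largest part of its control level.

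In Cebpa_ASKO iWAT each member was lower than in any control library. *Mup22* was at 5.53, 8.11 and 7.22 TPM in the 3 Cebpa_ASKO libraries and at rank 9512, 8775 and 9224. In CPM the mean went from 3131 ± 485 to 3.80 ± 0.467 (SD, n = 3 each), an 824-fold difference. *Mup18* was at 0.336, 2.22 and 0.532 TPM, a 599-fold difference in mean CPM, and *Mup14* at 0.164, 0.0987 and 0.0958 TPM, a 601-fold difference. *Mup11* had 0, 0 and 19 estimated counts in the Cebpa_ASKO libraries against 4975 to 6260 in controls, so its 849-fold difference in mean CPM rests on the reads of 1 library. *Mup10* had 0, 3 and 6 counts against 10480 to 16014, a 3873-fold difference in mean CPM. The ratio of mean CPM was thus 599 or more for each of the 5 most abundant members, and the groups were far apart for each. For *Mup18* the ratio of mean TPM was 567. These ratios rest on few Cebpa_ASKO counts for all but *Mup22*.

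The low members differed more in how much remained. *Mup7* had 0 counts in the 3 Cebpa_ASKO libraries and 309 to 412 in controls, and was at least 312-fold lower when 3 counts over the group are taken as the limit that 0 allows. *Mup13* had 0 counts in the same libraries and was at least 62.9-fold lower by the same limit. *Mup1* had 0, 3 and 5 counts against 217, 228 and 246, a 78.8-fold difference in mean CPM. *Mup2* had 8, 0 and 0 counts against 14, 134 and 48, a 16.4-fold difference, and its highest Cebpa_ASKO library at 0.465 TPM lay just under its lowest control library at 0.506 TPM. *Mup3* kept the most, at 0.708, 1.76 and 1.03 TPM, which was 13.8% of its control mean in CPM and a 7.26-fold difference. Every Cebpa_ASKO library was below every control library for all 10 members. Since the members were chosen on this contrast, that count is set beside the 13.2% of tested genes with such a separation only for scale.

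Summed over the 10 genes, the level was 3410, 3812 and 4630 CPM in Cebpa_fl/fl and 4.41, 6.82 and 5.37 CPM in Cebpa_ASKO iWAT. The mean fell from 3951 ± 622 to 5.53 ± 1.21 CPM (SD, n = 3 each), so 0.140% of the control level remained, and the log2 ratio was -9.48. The sum took 0.333%, 0.388% and 0.443% of all counts in the control libraries. Among the 13959 genes with a control mean of at least 1 CPM, the median gene was at 101% of its control mean in Cebpa_ASKO iWAT. In that set 19 genes were below 1%, and 8 of these 19 were *Mup* genes. All of the 8 except *Mup16* are members, which were chosen on this contrast, so the count is only a description. The adipokine *Retn*, which encodes resistin, was at 0.106% of its control mean. *Cebpa* itself was at 8.55%, so a larger part of its transcripts than of the summed *Mup* transcripts remained in the same libraries.

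The make-up of the *Mup* reads was stable among controls. *Mup22* took 80.0%, 78.6% and 79.2% of the summed estimated counts of the 10 genes, *Mup18* 9.24% ± 0.782 and *Mup10* 6.87% ± 0.445 (SD, n = 3). In the Cebpa_ASKO libraries the sums were 139, 267 and 239 counts, so shares there are coarse. *Mup22* took 76.3% of them (95% Wilson interval 68.5% to 82.6%), 62.9% (57.0% to 68.5%) and 69.9% (63.8% to 75.3%). *Mup3* took 10.8% (6.65% to 17.0%), 15.0% (11.2% to 19.8%) and 10.9% (7.53% to 15.5%), against 0.128% ± 0.0066 of the larger sums in controls. *Mup18* took 5.04%, 19.1% and 5.86%, and in Cebpa_ASKO 2 its interval was 14.8% to 24.2%. The intervals cover counting error only, and not the error of dividing reads between like genes. The Cebpa_ASKO libraries thus shared a larger part for *Mup3* and differed among themselves in *Mup18* and *Mup11*.

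**Figure D3:**
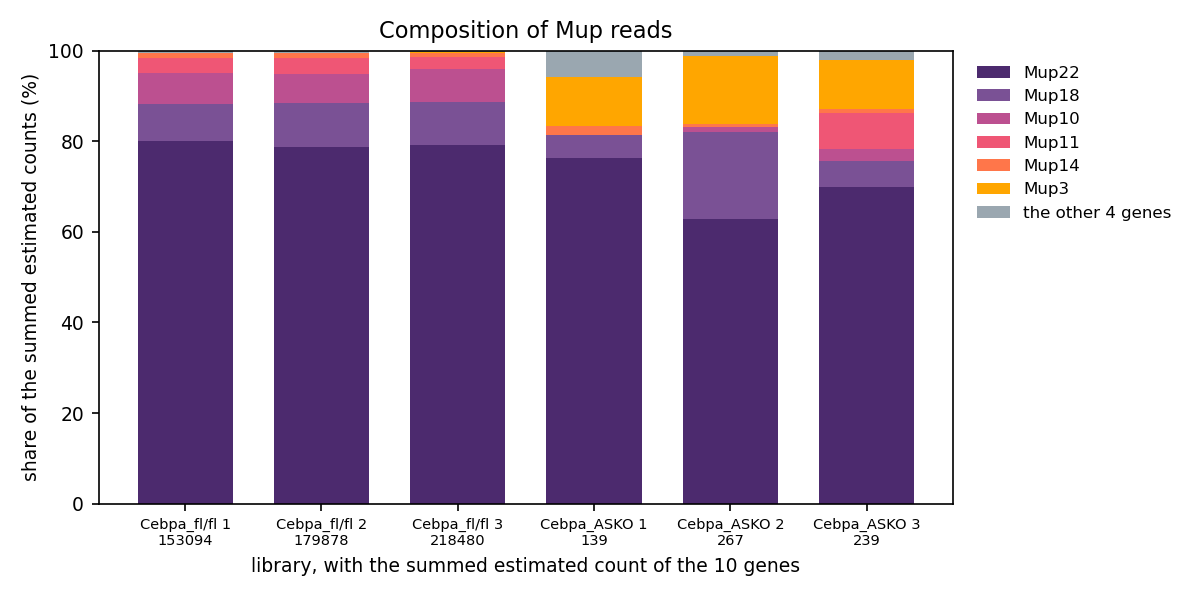
Share of the summed estimated counts of the 10 Mup genes taken by each, in percent, in each library, with the summed count under the library name. Mup22 takes 78.6% to 80.0% in the controls and 62.9% to 76.3% in Cebpa_ASKO libraries, where Mup3 takes 10.8% to 15.0% of sums of at most 267 counts.

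Transcript types offered another view of the same reads. Second copies of *Mup13* and *Mup14* transcripts, which lie outside the annotation and have no type, were left out here. Transcripts annotated as retaining an intron took 1.15%, 0.914% and 1.52% of the summed member counts in the control libraries, against 2.85% to 3.05% over all genes in the same libraries. This low share was largely set by the annotation. *Mup22* and *Mup18* have only a protein-coding model, so none of their reads could be placed on a retained-intron transcript. *Mup10* and *Mup14* do have such a transcript. That of *Mup10* took 1422, 1327 and 2674 estimated counts in the control libraries, beside 9058, 10259 and 13340 on its protein-coding model. That of *Mup14* took 325, 309 and 636, beside 432, 554 and 406 on its leading protein-coding model. The second copies of these *Mup14* transcripts held equal counts, which are not included.

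The other 12 numbered *Mup* genes gave a measure that the list did not include, although the same contrast was in view when the list was drawn up. *Mup16* was at 77.8, 90.6 and 111 TPM in Cebpa_fl/fl and at 0.552, 0.281 and 0.145 in Cebpa_ASKO iWAT, so it was more abundant than 6 of the 10 members. *Mup9* was at 45.6, 62.6 and 68.7 TPM against 0.777, 0.102 and 0. Only 5 of the 12 passed edgeR's filter on low counts, and they passed through their control levels, so a lower level in Cebpa_ASKO iWAT was nearly fixed by the filter and their differences are given as a description. The fitted log2 fold change was -8.21 ± 0.33 for *Mup16*, -6.72 ± 0.82 for *Mup9*, -5.43 ± 0.33 for *Mup17* and -2.85 ± 0.58 for *Mup15* (SE, edgeR). *Mup19*, at 6.58, 22.2 and 11.8 TPM against 4.20, 1.89 and 0.399, had a fitted log2 fold change of -2.63 ± 0.82 (SE), and its groups did not overlap.

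The other numbered genes were close to 0 in both genotypes. *Mup20*, which encodes the male pheromone darcin, was at 0 to 0.187 TPM in controls and at 0.0869 to 0.511 in Cebpa_ASKO libraries. *Mup21* was at 0.268 to 1.17 TPM against 0.156 to 0.397. *Mup4*, *Mup5*, *Mup6*, *Mup8* and *Mup12* did not exceed 0.583 TPM in any library. Of 27 annotated *Mup* pseudogenes, 17 had no count in any library, and their sum ranged from 0.276 to 0.784 CPM in controls and from 0.0898 to 0.317 in Cebpa_ASKO iWAT. Transcripts of some genes of the cluster were thus abundant in control iWAT and those of others near 0, and the 22 genes together went from 4026 ± 633 to 8.02 ± 1.54 CPM (SD, n = 3 each).

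Genes on either side of the cluster were examined within 1 Mb, outside the *Mup* span. Of 47 annotated flanking genes, 24 were tested and 0 were called by edgeR, beside 5.23% of all genes. In edgeR 2 of the 24 had an unadjusted p below 0.05, beside 3185 of the 16069 genes tested. DESeq2 called 1 and limma on log2(TPM + 1) called 0, beside 1802 and 626 over all genes. Their median log2 fold change was -0.01, against 0.02 over all genes. Of the 4 with the highest mean level over both genotypes, *Hsdl2*, a hydroxysteroid dehydrogenase-like gene, was at 158, 144 and 167 CPM in controls and at 183, 158 and 120 in Cebpa_ASKO iWAT. *Ptbp3*, which encodes an RNA-binding protein, was at 126 to 133 CPM against 122 to 135, *Rgs3* at 75.7 to 87.5 against 44.7 to 101, and *Fkbp15* at 48.1 to 54.2 against 46.5 to 53.5. The groups overlapped for each of the 4, and the fitted log2 fold changes were -0.02 ± 0.16 for *Hsdl2*, -0.01 ± 0.08 for *Ptbp3*, -0.33 ± 0.32 for *Rgs3* and -0.00 ± 0.09 for *Fkbp15* (SE), of which all but *Rgs3* changed sign in 6 of 15 alternatives. Without Cebpa_ASKO 3, *Rgs3* was called lower, with a log2 fold change of -0.84 (edgeR, adjusted p = 0.013, and from 0.013 to 0.92 over its 15 alternatives). A full separation with Cebpa_ASKO lower was seen for 13.2% of all tested genes. *Alad*, which encodes an enzyme of heme synthesis and was named after its values were seen, did not overlap. It was at 57.7, 49.7 and 58.7 CPM in controls and 43.9, 44.1 and 37.9 in Cebpa_ASKO iWAT. Its log2 fold change was -0.40 ± 0.10 (SE, edgeR, adjusted p = 0.088), and it was the gene called by DESeq2 (adjusted p = 0.023, and from 0.023 to 0.23 over its 15 alternatives). *Bspry*, *Prpf4* and *Inip*, also named after their values were seen, did not overlap either, and all were higher in Cebpa_ASKO iWAT. The share of all tested genes separated in that direction was not counted. *Bspry* went from 5.99, 4.43 and 7.90 CPM to 11.2, 10.8 and 8.01, a log2 fold change of 0.71 ± 0.25 (SE, edgeR, adjusted p = 0.18).

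**Figure D4:**
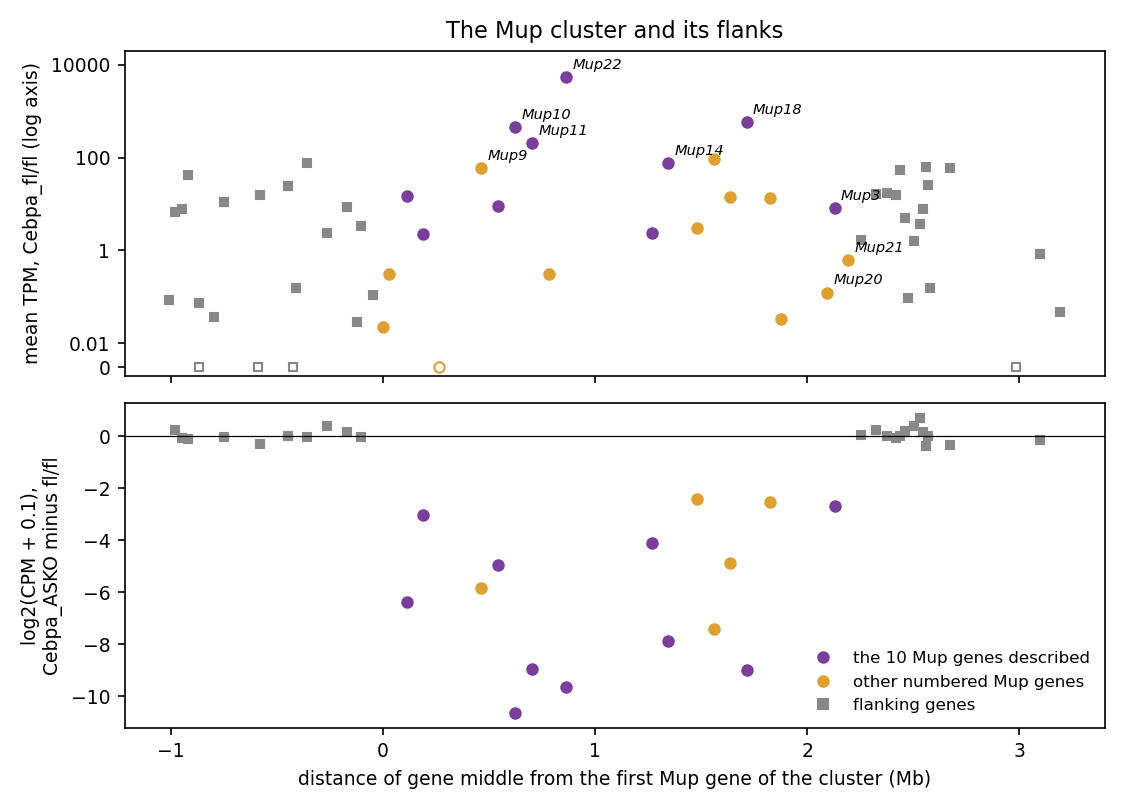
Top, mean gene TPM in Cebpa_fl/fl iWAT (log axis, open symbols at 0) of the Mup genes and of the flanking genes against the distance of the gene's middle from the start of the first Mup gene in Mb; bottom, the difference in log2(mean CPM + 0.1), Cebpa_ASKO minus Cebpa_fl/fl, for genes of at least 1 CPM in a genotype. All plotted Mup genes lie below 0, and the flanking genes lie closer to 0, on both sides of it.

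The bases upstream of the annotated start sites were compared, as a description, for the 7 members present in the RefSeq promoter table (GRCm38.p6). *Mup22*, by far the most abundant member, is not among them, nor are *Mup1* and *Mup13*. The table holds 250 bases before and 50 after each start. Shown are the 130 bases before the start of *Mup10* and *Mup18*, which are among the most abundant members, and of *Mup3*, the member that kept the most of its level. Capitals mark TATATAA on either strand.
*Mup10*, chr4:60582156-60582285, minus strand: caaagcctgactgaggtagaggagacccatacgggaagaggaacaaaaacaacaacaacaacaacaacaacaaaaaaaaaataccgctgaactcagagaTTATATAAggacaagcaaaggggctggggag
*Mup18*, chr4:61674095-61674224, minus strand: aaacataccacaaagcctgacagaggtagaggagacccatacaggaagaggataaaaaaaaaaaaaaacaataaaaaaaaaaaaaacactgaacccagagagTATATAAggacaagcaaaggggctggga
*Mup3*, chr4:62087318-62087447, minus strand: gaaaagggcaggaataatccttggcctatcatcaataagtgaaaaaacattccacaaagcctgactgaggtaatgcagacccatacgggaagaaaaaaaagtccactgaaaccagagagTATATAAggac
The stretches are closely alike around the marked letters. TATATAA, a form of TATA box spelled after the promoters had been read, was present in 6 of these 7 promoters and in 7 of 7 of the other *Mup* promoters in the table, against 3.46% of all 27025 promoters of the same length. Its place ran from 31 bases before the start in *Mup10* to 12 bases after it in *Mup14*, since annotated start sites differ between the genes. TTGCNNAA, a C/EBP consensus, was found in 0 of 7 member promoters on either strand and in 10.8% of all promoters. TTCNNNGAA, a STAT consensus, was found in 0 of 7 and in 8.47% of all. This says only that those letters are not in these windows of 300 bases.

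Regulators named for *Mup* transcription in the liver were read from a list of 19 genes, of which 14 were tested, 3 were called lower and 1 higher, beside 5.23% of all genes called. *Cebpa*, 1 of the 3 called lower, is the deleted gene, so its call was set by the design. Its log2 fold change was -3.55 ± 0.13 (SE, edgeR, adjusted p = 0.00015). *Cebpg*, a C/EBP family member that pairs with the others, rose from 71.7, 83.4 and 75.5 CPM to 225, 199 and 166, a log2 fold change of 1.36 ± 0.14 (SE, edgeR, adjusted p = 0.0032). *Cebpb* was at 102 to 153 CPM in controls and 136 to 191 in Cebpa_ASKO iWAT (edgeR, adjusted p = 0.26), and *Cebpd* at 24.4 to 31.2 against 35.9 to 55.9 (edgeR, adjusted p = 0.065). *Insr*, the insulin receptor gene, fell from 107, 110 and 132 CPM to 58.3, 59.8 and 64.7 (edgeR, adjusted p = 0.0052). *Esr1*, the estrogen receptor gene, fell by 0.64 on the log2 scale (edgeR, adjusted p = 0.044), and this call was lost in 10 of 15 alternatives. The glucocorticoid receptor gene *Nr3c1* was at 172 to 176 CPM against 117 to 149, without overlap and with an adjusted p of 0.098 in edgeR. The list had a median log2 fold change of -0.03, near that of all genes.

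Growth hormone signalling was followed in 17 genes, all tested, of which 2 were called lower and 1 higher, beside 5.23% of all genes. *Ghr*, the growth hormone receptor gene, stood at 558, 826 and 676 CPM in Cebpa_fl/fl and at 121, 107 and 101 in Cebpa_ASKO iWAT. Its log2 fold change was -2.65 ± 0.18 (SE, edgeR, adjusted p = 0.00078), so the receptor transcript fell far beyond the spread between libraries. *Igfals*, which encodes the acid-labile subunit of the circulating IGF complex, fell from 33.5, 42.1 and 37.8 CPM to 5.17, 5.44 and 10.4 (edgeR, adjusted p = 0.0054). *Cish*, a STAT5-induced inhibitor of cytokine receptors, was higher, at 16.6, 20.5 and 30.6 CPM against 47.4, 64.1 and 47.4 (edgeR, adjusted p = 0.039), a call lost in 7 of 15 alternatives. The kinase gene *Jak2* was at 45.7 to 61.7 CPM against 65.0 to 72.3 (edgeR, adjusted p = 0.19). *Stat5b* was at 86.3 to 93.6 CPM against 96.7 to 108 (edgeR, adjusted p = 0.31), and *Stat5a* at 80.0 to 157 against 134 to 185. The median log2 fold change of the list was 0.22, and 4 of its 17 genes had a value below 0, among them *Ghr* and *Igfals*.

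Other lipocalin genes, relatives of the *Mup* genes outside the cluster, were listed as 24 symbols, of which 22 were in the table and 8 were tested. Of these 8, 4 were called lower by edgeR, beside 3.84% of all genes, and their median log2 fold change was -1.54. *Orm1*, which encodes an α1-acid glycoprotein, fell from 142, 115 and 172 CPM to 5.13, 5.44 and 6.17, a log2 fold change of -4.68 ± 0.18 (SE, edgeR, adjusted p = 0.00015). Its neighbour in the family, *Orm3*, had a log2 fold change of -3.55 ± 0.44 (SE, edgeR, adjusted p = 0.0073). *Orm2*, also among the 4 called, was at 1.53 to 1.84 CPM in controls and at 0 to 0.224 in Cebpa_ASKO iWAT. It passed edgeR's filter on low counts through its control levels, so a lower level was nearly fixed by the filter. Its log2 fold change of -3.80 ± 0.70 (SE) is thus a description, and its call was lost in 4 of 14 alternatives. The *Orm* genes are close copies, so the division of reads among them is also uncertain. *Rbp4*, the retinol carrier, fell from 251, 189 and 323 CPM to 26.7, 40.6 and 26.8 (edgeR, adjusted p = 0.002). *Lcn2* was at 67.7 to 84.5 CPM against 70.6 to 116, *Apod* at 81.4 to 173 against 154 to 163, *C8g* at 2.42 to 3.88 against 2.53 to 3.96, and *Ptgds* at 2.92 to 4.77 against 6.41 to 13.8, and none of these passed the threshold. Of the remaining 14 lipocalins in the table, 8 had no count in any library.

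The 12631 genes outside the family that averaged 1 or more in log2 CPM were ranked by likeness. Those whose log2 CPM followed the summed *Mup* level most closely over the 6 libraries were *Cebpa*, *Gm2a*, *Gstz1*, *Orm1* and *Mfng*. Their Pearson correlations, which here mostly restate the difference between the genotypes, were 0.9996, 0.998, 0.998, 0.997 and 0.997. The size of the difference was not alike. *Gm2a*, the GM2 ganglioside activator, kept 48.8% of its control level, *Gstz1*, an enzyme of tyrosine breakdown, 13.6%, *Mfng*, a glycosyltransferase that modifies Notch, 15.8% and *Orm1* 3.90%, against 0.140% for the summed *Mup* genes.

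**Figure D5:**
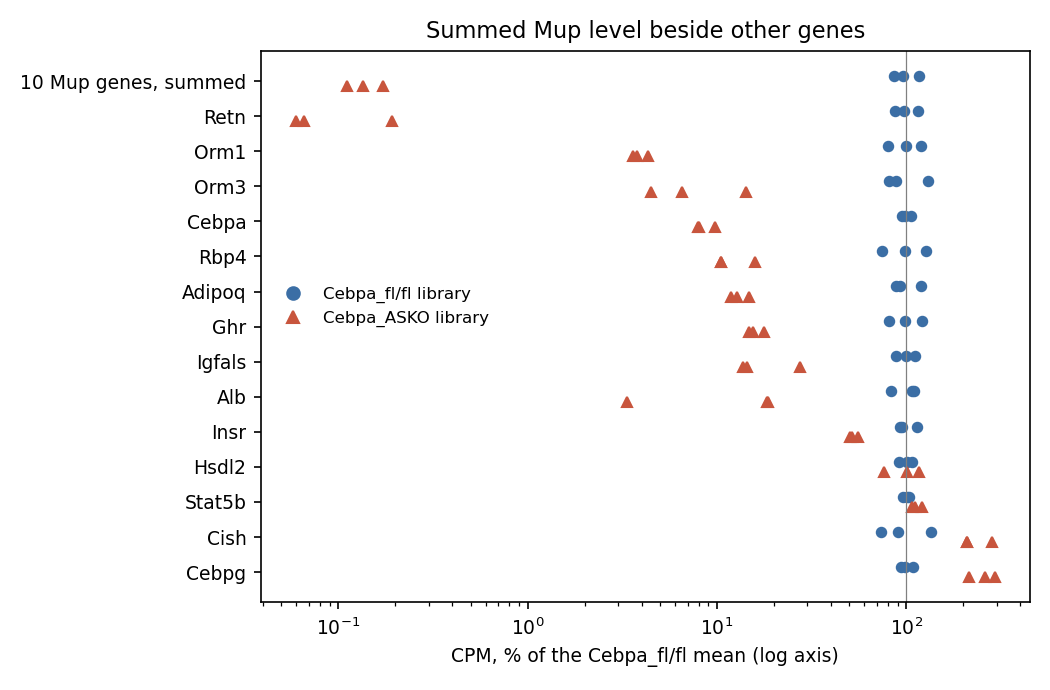
CPM of the summed 10 Mup genes and of single genes in each library as a percentage of the Cebpa_fl/fl mean (log axis), with circles for Cebpa_fl/fl and triangles for Cebpa_ASKO libraries. The summed Mup genes and Retn lie near 0.1%, Cebpa at 8.55% on average, Ghr between 10% and 20%, and Hsdl2 around 100%.

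Markers of other cell types were set beside these results. Hepatocyte markers, 18 genes in all, summed to 88.7 to 95.3 CPM in controls and 23.0 to 118 in Cebpa_ASKO iWAT. Of the 18, 8 were tested and 2, *Alb* and *Apoc3*, were called lower, beside 3.84% of all genes. *Alb*, the albumin gene, was at 24.6, 32.5 and 31.5 CPM in controls against 5.48, 5.41 and 0.988. *Apoc3*, an apolipoprotein gene, was at 4.43, 2.82 and 6.55 CPM against 0.380, 0.102 and 0.426. In Cebpa_ASKO 2 it lay below the level that edgeR's filter on low counts asks for. *Apoc3* thus passed through its control levels, and the filter favoured a lower level for it. *Serpina3k* was at 0.646, 0.996 and 4.11 CPM in controls and at 0 in the 3 Cebpa_ASKO libraries, and *Apoa1* at 0.334 to 0.466 CPM against 0 to 0.128. *Fgb* and *Fgg*, which encode fibrinogen chains, were at 13.8 and 41.5 CPM on average in controls. *Fga*, the gene for the third fibrinogen chain, and the liver enzyme genes *Cps1* and *Cyp3a11* were at 0 in the 3 control libraries, and *Ahsg*, *Apoh* and *Tat* were below 0.03 CPM on average there, in the same libraries that held 3410 to 4630 CPM of *Mup* transcripts. Skeletal muscle markers were higher in Cebpa_ASKO iWAT, with 11 of 12 called, beside 1.39% of all genes called higher, and sums of 2047 to 5887 CPM against 612 to 833. Mammary epithelium markers summed to 2334 to 2456 CPM against 823 to 1777. Of 11 tested, edgeR called 0, DESeq2 4 and limma on log2(TPM + 1) 1, with 8 at an unadjusted p below 0.05 in edgeR. Over all genes DESeq2 called 1802 and limma 626, and 3185 of the 16069 tested in edgeR had such an unadjusted p. Macrophage markers summed to 1690 to 2287 CPM in Cebpa_ASKO iWAT against 1034 to 2805. Keratinocyte markers summed to 114 to 167 CPM in Cebpa_ASKO and 97.3 to 165 in Cebpa_fl/fl iWAT. The part of these cell types in the *Mup* result was not tested. Without Cebpa_fl/fl 1, the library high in lymphocyte markers, the log2 ratio of the summed *Mup* genes was -9.58, and without Cebpa_ASKO 2, the library highest in muscle markers, it was -9.66, against -9.48 with all 6.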

How the data were processed

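Poly-A RNA-seq of whole iWAT covered 3 libraries per genotype, grouped by their labels. Each library is a separate mouse, sequenced as read pairs on a NextSeq 500. For each transcript the authors deposited an estimated count and an effective length from kallisto 0.44.0, which the submitters' processing notes name, together with GRCm38.p6 and GRCh38.p12. The authors also deposited TPM, a length-corrected share of the library, per transcript and per gene symbol. The library totals of 33141769 to 49477671 estimated counts set the precision.

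Transcripts were matched to GENCODE M21, and 116816 of 118489 matched. Estimated counts were summed by symbol and rounded. For *Mup9*, *Mup13*, *Mup14*, *Mup15* and *Mup16* the authors' index held second copies of transcripts outside M21, with equal values in all libraries, and they were added, after which the sums equalled the authors' gene TPM within 0.001. CPM were scaled by TMM factors of 0.956 to 1.06. Genes were tested with edgeR 4.0.16 (quasi-likelihood test, filterByExpr, 16069 genes, Benjamini-Hochberg adjustment, threshold 0.05), in R 4.3.3. The procedure was tested on simulated counts. Each SE of an edgeR log2 fold change is the absolute fold change on the log2 scale divided by the square root of F. It was thus derived from the test and not reported by edgeR. A group at 0 was read against 3 counts over the group. Alternatives used DESeq2 1.42.0 and limma 3.58.1 on log2(TPM + 1) and log2(TPM + 0.1), other scalings and filters, a replicate block, and each library left out. Sequences came from GENCODE M21 and the RefSeq promoter table, and alignments from Biopython 1.88.

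The members and all gene lists were chosen with earlier results of these data known. Named genes were the 10 members, other *Mup* genes of at least 1 CPM, genes called in each other list or, with none called, the 4 highest, and the 5 genes most like the summed members, without predicted genes or Rik clones. Further genes of the lists named in the text, among them *Cebpb*, *Cebpd*, *Nr3c1*, *Jak2*, *Stat5a*, *Stat5b*, *Alad* and *Retn*, and markers of other cell types, were chosen after their values were seen. Effective lengths were not used in tests. The paper's liver samples were not analysed here.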

Additional observations from a re-analysis of the deposited data

How the results depend on the processing

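The log2 ratio of the summed *Mup* genes ran from -9.66 to -9.34 when each library was left out, and was -9.49 with DESeq2's size factors, -9.42 with total counts, -9.42 with the authors' TPM and -9.48 without the second transcript copies, an alternative added after the data were seen. Single members rested more on 1 library. Without Cebpa_ASKO 2 the log2 ratio of *Mup18* was -10.42 instead of -9.23, without Cebpa_fl/fl 2 that of *Mup2* was -2.97 instead of -4.04, and without Cebpa_ASKO 3 that of *Mup1* was -7.02 instead of -6.30, that of *Mup10* was -12.80 instead of -11.92, and *Mup11* was at 0 in the knockout. The cause was not tested.

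Over all genes, 840 were called, against 1802 with DESeq2, 359 with limma without a filter, and 314 to 923 when a library was left out, with 314 without Cebpa_ASKO 1, 366 without Cebpa_ASKO 2, 510 without Cebpa_fl/fl 1 and 502 without Cebpa_fl/fl 3. The replicate block called 369, of which 354 were among the 840. No sign was seen that the numbers pair the mice, since deviations of same-numbered libraries correlated at 0.066, 0.028 and -0.20. Those of differently numbered libraries correlated at -0.18 to 0.15. So few libraries cannot exclude a pairing. Calls among the other *Mup* genes were nearly fixed by the filter, as stated above, so their number is given only to show how it depends on the settings. It was 4 in the main fit, beside 5.23% of all genes tested, and 2 with the replicate block. It was 0 with at least 10 counts in every library, a filter that removes genes near 0 in the knockout. Of the regulators, 7 were called with DESeq2 and 2 with limma without a filter, instead of 4. Of the flanking genes, 1, *Alad*, was called with DESeq2, and 0 to 1 when a library was left out, *Alad* without Cebpa_fl/fl 2 and *Rgs3* without Cebpa_ASKO 3. The small negative estimates of 3 flanking genes took the other sign in limma on log2(TPM + 0.1), on log2(TPM + 1), without a filter, and with total counts, at 0.0535, 0.0510, 0.0510 and 0.0457 for *Fkbp15*, 0.0205, 0.0204, 0.0204 and 0.0182 for *Hsdl2*, and 0.0314, 0.0305, 0.0305 and 0.0367 for *Ptbp3*. With a library left out they ran from -0.0696 to 0.0486, from -0.168 to 0.111 and from -0.0763 to 0.0192.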

Other observations

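Within the 2 genotypes the members kept different orders. *Mup3*, eighth in the control order by TPM, was above *Mup18* in the libraries Cebpa_ASKO 1 and Cebpa_ASKO 3 (0.708 against 0.336 TPM, and 1.03 against 0.532 TPM), and below it in Cebpa_ASKO 2 (1.76 against 2.22 TPM). *Mup19*, which is not among the 10 genes and shares every 31-base word of its leading transcript with another gene, took 32.6%, 11.9% and 3.57% of the counts of the 22 numbered *Mup* genes in the 3 Cebpa_ASKO libraries and 0.208% ± 0.116 (SD, n = 3) in controls. The pseudogene *Mup-ps24* was at 1.31, 1.38 and 2.41 TPM in Cebpa_fl/fl and at 2.41, 2.02 and 1.02 TPM in Cebpa_ASKO libraries, so its groups overlapped. These values were picked after they had been seen, and none was tested.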
